A study of Mus musculus with 4 samples.

Results

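*Atf4* and 9 genes of the amino acid stress response were followed in mouse embryonic fibroblasts with and without deletion of *Phf2*, a PHD finger protein that reads trimethylated histone H3. The 10 genes were taken by symbol from the deposited count table, which lists 24391 gene symbols. They are the factors *Atf4*, *Ddit3* and *Trib3*, the amino acid transporter subunits *Slc7a5*, *Slc3a2* and *Slc7a11*, the enzymes *Phgdh*, *Psat1* and *Asns*, and *Chac1*. All 10 passed the filter on low counts and were tested, among 13668 genes.

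The RNA-seq libraries, 2 of WT and 2 of *Phf2* KO, came from quiescent primary MEFs, fibroblasts that were cultured from E13.5 embryos. By the labels all 4 libraries have the genotype Phf2 flox/flox, ERCre/+, in which the Rosa26 locus expresses CreERT2, a form of Cre that becomes active with 4-hydroxytamoxifen (4-OHT). Tamoxifen is named for the *Phf2* KO libraries, and the descriptions of the WT libraries give none. The protocol for deletion was 0.5 µM 4-OHT for 7 days in Opti-MEM with 2% charcoal-treated serum. It is attached to all 4 libraries in the same words, and the medium or vehicle of the WT cells is not given by name. Loss of Phf2, activity of Cre and exposure to 4-OHT therefore cannot be told apart in these libraries, nor can any difference in medium.

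In the integrated stress response, kinases that sense uncharged tRNA, unfolded protein, heme shortage or viral RNA phosphorylate the α subunit of eIF2, which lowers general translation while the *Atf4* mRNA is translated more. Atf4 then pairs with C/EBP proteins on composite DNA elements and activates genes for amino acid uptake, amino acid synthesis and tRNA charging. Because much of the control of Atf4 is translational, the *Atf4* mRNA measured here does not give the level or activity of the protein.

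The DNA element itself was looked up first, since it is what most of these genes are known to share. The core TGATGNAA was searched on both strands in RefSeq promoter windows of 250 bases before to 50 bases after the start site, from a table built on GRCm38.p6, and windows were placed on mm9 by exact sequence match. It was found for *Slc7a11*, *Asns*, *Chac1* and *Trib3*, in 4 of the 10 windows of the 9 genes that had one, against 3.97% of all 32851 windows. The stricter TGATGCAA, which the first search contains, was found for *Slc7a11* and *Chac1*, against 0.895% of all windows. Of 37 windows of other known targets of Atf4, 18.9% held the core. *Slc7a5* had no window, and sequence outside the windows was not searched. The stretches are shown on the strand of each gene, 5′ to 3′, with the core in capitals (also where it lies on the opposite strand and reads as its reverse complement), and in *Slc7a11* both matches face each other.

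*Slc7a11*, chr3:50247555-50247621 (mm9, minus strand), 86 to 20 bases before the start: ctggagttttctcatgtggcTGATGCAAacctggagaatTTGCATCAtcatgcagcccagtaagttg
*Asns*, chr6:7643214-7643243 (mm9, minus strand), 34 to 5 bases before the RefSeq start: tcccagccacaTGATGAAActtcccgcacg
*Chac1*, chr2:119176765-119176812 (mm9, plus strand), 213 to 166 bases before the start: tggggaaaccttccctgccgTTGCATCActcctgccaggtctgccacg
*Trib3*, chr2:152169765-152169792 (mm9, minus strand), core from base 15 after the RefSeq start: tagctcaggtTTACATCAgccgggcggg

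In the older GENCODE vM1 annotation of mm9, the *Asns* stretch lies inside the first exon, and the core of *Trib3* lies upstream of the annotated gene. These matches describe sequence only. Among the 4 genes that hold the core, the groups did not overlap for *Asns* and *Trib3*, both lower in *Phf2* KO. They overlapped for *Slc7a11* and *Chac1*, as given below. Over all genes tested the groups did not overlap for 18.0% with *Phf2* KO lower and 15.5% with *Phf2* KO higher. A link between the core and a change was not tested.

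The libraries were checked before the genes were compared. The total count was between 21094743 and 26094268 per library, so 3 counts were worth 0.115 to 0.142 CPM, the count of a gene relative to the size of its library. *Phf2* had 135 and 142 normalized CPM (CPM after TMM scaling between libraries) in WT, against 70.2 and 89.8 in *Phf2* KO. The level in *Phf2* KO was thus 57.9% of that in WT, counted over the whole gene (log2 fold change -0.79 ± 0.141, edgeR unadjusted p = 0.00332), and with an adjusted p of 0.999 *Phf2* itself was not called without the block described below. The exons that are floxed are not given in the sources used here. *Xist*, which the inactive X chromosome transcribes, had 10042 (WT) and 8336 (*Phf2* KO) counts in the libraries numbered 1 but 3 and 12 counts in those numbered 2, while Y-linked *Ddx3y* showed the opposite order. The libraries numbered 1 therefore had female and those numbered 2 male expression in both groups. The fibroblast markers *Col1a1*, *Col1a2* and *Col3a1* were abundant in every library, and the 9 fibroblast markers summed to between 57190 and 68857 normalized CPM. The 17 macrophage markers, with *Lyz2*, *Cd68* and *C1qb* the most abundant, were all higher in number 1 than in number 2 in both groups, and their sum was 4170 and 893 normalized CPM in WT, against 4609 and 1393 in *Phf2* KO. Markers of endothelial, muscle and neural cells summed to between 14.9 and 111 normalized CPM, and epithelial markers to under 1 in every library. In bulk RNA, a change in the number of cells of a type and a change in RNA per cell cannot be told apart. Neither the labels nor the methods say that a number marks a shared embryo, so the pairing rests on the counts, and each of the 10 genes is given without it and within each number.

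*Phf2* KO and WT were compared to ask whether the amino acid stress response differs after loss of Phf2. None of the 10 genes passed the test of edgeR (quasi-likelihood, Benjamini-Hochberg adjusted p under 0.1 over all genes tested). Over all genes 0.00732% passed, which is 1 gene of 13668, the Wnt inhibitor gene *Dkk2*, named here after its values were seen. None of the 10 had an unadjusted p under 0.05 either, against 4.21% of all genes, and DESeq2 and limma-voom called none. The log2 fold change of *Phf2* KO against WT was negative for 7 of the 10, with a median of -0.05, beside a median of 0.01 over all genes tested. The median size of the change, without its sign, was 0.0596 for the 10 genes and 0.122 for all genes. For the 9 genes other than *Slc7a11*, the 95% intervals of the change ran from 0.658-fold at the lowest to 1.27-fold at the highest, so larger changes of these mRNAs in either direction lay outside the intervals.

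**Figure D1:**
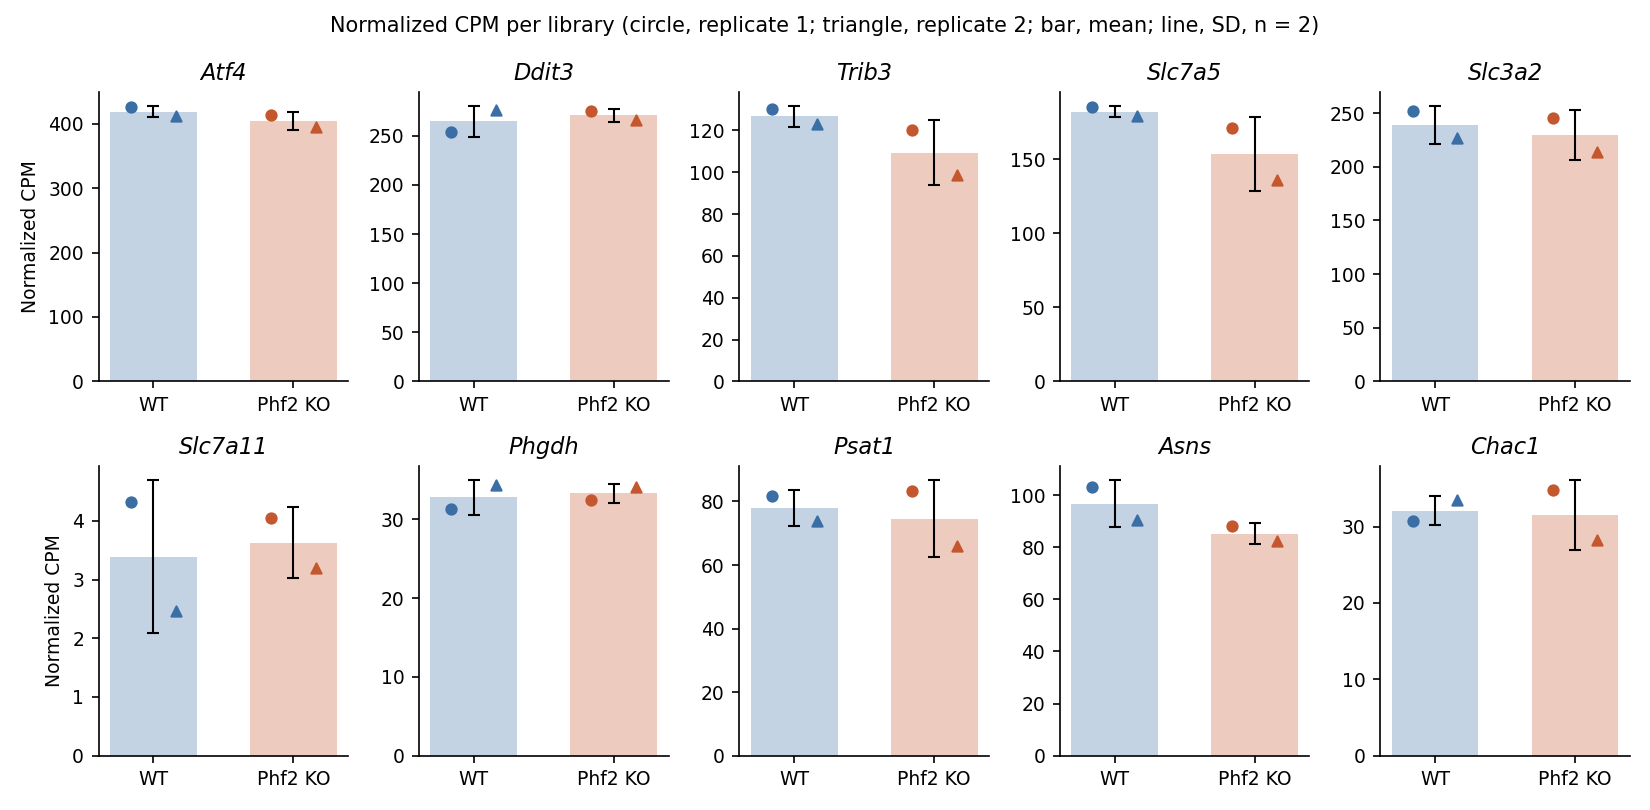
Normalized CPM (vertical axes, from 0, each gene on its own scale) of the 10 genes in the WT and *Phf2* KO libraries. Circles are replicate 1, triangles are replicate 2, bars are means and lines are SD (n = 2). *Trib3*, *Slc7a5* and *Asns* are the genes in which both *Phf2* KO libraries lie below both WT libraries.

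Levels between genes were compared per kilobase of exon, with exon lengths from GENCODE vM1, which may differ from the annotation the authors counted on. In WT, *Atf4* was the most abundant of the 10 at 243 ± 5.25 CPM per kb (SD, n = 2), followed by *Ddit3* at 155 ± 9.19, *Slc3a2* at 80.8 ± 6.03, *Trib3* at 59.6 ± 2.39 and *Slc7a5* at 51.8 ± 1.12. The enzymes were lower, with *Asns* at 35.4 ± 3.30, *Chac1* at 19.6 ± 1.17, *Psat1* at 18.3 ± 1.33 and *Phgdh* at 13.2 ± 0.881 CPM per kb. *Slc7a11* was the lowest at 0.302 ± 0.116 CPM per kb, from 64 and 104 counts in WT. The libraries of neighbouring genes in this order overlapped for *Chac1* and *Psat1* in WT. In *Phf2* KO they overlapped for *Trib3* and *Slc7a5* as well as for *Chac1* and *Psat1*. The order of the 10 means was the same in both groups.

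*Atf4* encodes the bZIP transcription factor at the centre of the response and lies on chromosome 15 (chr15:80085614-80087970, mm9, plus strand). It had 425 normalized CPM in WT replicate 1 and 412 in WT replicate 2, against 414 and 395 in the *Phf2* KO replicates of the same numbers. The groups overlapped, with *Phf2* KO replicate 1 between the WT libraries and *Phf2* KO replicate 2 lowest. The log2 fold change was -0.05 ± 0.088 (SE), with an unadjusted p of 0.594 and an adjusted p of 0.999 in edgeR. Its 95% interval, from -0.28 to 0.18, corresponds to between 0.822-fold and 1.13-fold of the WT level. Each *Phf2* KO library was close to the WT library of its number, with log2 ratios of -0.04 in number 1 and -0.06 in number 2.

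*Ddit3* encodes Chop, a bZIP factor induced under prolonged stress and linked to cell death. It lies at chr10:126727830-126733344 (plus strand), where its exons overlap those of *Mars* on the opposite strand. The alignment is stated to have been stranded and the strand setting of the counting is not stated, so the *Ddit3* counts could hold reads of *Mars*. *Ddit3* had 254 and 276 normalized CPM in WT, against 275 and 266 in *Phf2* KO. Both *Phf2* KO libraries lay between the WT libraries, and the log2 fold change was 0.03 ± 0.091 (edgeR, adjusted p = 0.999). The ratio was 0.12 in number 1 and -0.05 in number 2.

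*Trib3* encodes a pseudokinase that is induced by Atf4 and Chop and restrains Atf4 activity, and it lies at chr2:152163158-152169768 (minus strand). It had 130 and 123 normalized CPM in WT, against 120 and 98.5 in *Phf2* KO, so that both *Phf2* KO libraries were below both WT libraries. *Phf2* KO replicate 1 lay close to WT replicate 2, and *Phf2* KO replicate 2 stood lowest. The log2 fold change was -0.21 ± 0.123 (edgeR, unadjusted p = 0.152, adjusted p = 0.999), with a 95% interval from -0.54 to 0.11. Within numbers the ratios were -0.11 and -0.32.

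*Slc7a5* encodes LAT1, which carries leucine and other large neutral amino acids into the cell, and lies at chr8:124405052-124431594 (minus strand). It showed the most negative fold change of the 10. It had 185 and 179 normalized CPM in WT, against 171 and 136 in *Phf2* KO, with no overlap between the groups. The WT libraries were alike, and the spread was wider in *Phf2* KO, where replicate 2 stood apart at the low end. The log2 fold change was -0.25 ± 0.135 (edgeR, unadjusted p = 0.134, adjusted p = 0.999), with a 95% interval from -0.60 to 0.11, and the ratios were -0.11 in number 1 and -0.40 in number 2.

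*Slc3a2* encodes 4F2hc (CD98), the heavy chain that brings LAT1 and xCT to the plasma membrane, and lies at chr19:8781372-8797859 (minus strand). It had 252 and 226 normalized CPM in WT, against 246 and 213 in *Phf2* KO. The replicates of number 1 were the higher in both groups, and the groups overlapped. Its log2 fold change was -0.06 ± 0.116 (edgeR, adjusted p = 0.999), with a 95% interval from -0.36 to 0.25. The partner of LAT1 thus had a ratio of -0.03 in number 1 and -0.09 in number 2, and no difference between the changes of *Slc7a5* and *Slc3a2* was tested.

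*Slc7a11* encodes xCT, the cystine and glutamate exchanger that feeds glutathione synthesis, and lies at chr3:50168858-50247535 (minus strand). It was counted 104 and 64 times in WT, against 84 and 77 in *Phf2* KO, or 4.31, 2.47, 4.05 and 3.20 normalized CPM. Both *Phf2* KO libraries lay between the WT libraries, with ratios of -0.09 in number 1 and 0.38 in number 2. Its log2 fold change of 0.10 ± 0.345 (edgeR, adjusted p = 0.999) had the widest interval of the 10, from 0.568-fold to 2.02-fold. Its change was thus the least closely bounded of the 10, and the interval is not a limit of detection.

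*Phgdh* encodes the enzyme that draws 3-phosphoglycerate into serine synthesis and lies at chr3:98117093-98143913 (minus strand). Its normalized CPM was 31.2 and 34.3 in WT, against 32.4 and 34.1 in *Phf2* KO. *Psat1* encodes the aminotransferase of the next step (chr19:15979168-16021827, minus strand) and had 81.9 and 73.8 in WT, against 83.2 and 66.1 in *Phf2* KO. *Phf2* KO lay within the WT range for *Phgdh* and on either side of it for *Psat1*. The log2 fold changes were 0.02 ± 0.103 for *Phgdh* and -0.06 ± 0.141 for *Psat1* (edgeR, adjusted p = 0.999 for both), so that neither enzyme of serine synthesis passed the test. The ratios were 0.05 in number 1 and -0.01 in number 2 for *Phgdh*, and 0.02 and -0.16 for *Psat1*.

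*Asns* encodes asparagine synthetase, a standard readout of amino acid shortage, and lies at chr6:7625169-7643254 (minus strand). It had 103 and 90.4 normalized CPM in WT, against 88.0 and 82.3 in *Phf2* KO. Both *Phf2* KO libraries were below both WT libraries, by little between WT replicate 2 and *Phf2* KO replicate 1. The log2 fold change was -0.18 ± 0.100 (edgeR, unadjusted p = 0.131, adjusted p = 0.999), and the ratios were -0.23 in number 1 and -0.14 in number 2.

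*Chac1* encodes an enzyme that degrades glutathione and is a sensitive target of Atf4, and lies at chr2:119176965-119180117 (plus strand). It had 30.7 and 33.5 normalized CPM in WT, against 34.7 and 28.2 in *Phf2* KO. The *Phf2* KO libraries lay above and below both WT libraries, and the log2 fold change was -0.03 ± 0.139 (edgeR, adjusted p = 0.999). The ratio was 0.18 in number 1 and -0.24 in number 2.

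*Trib3*, *Slc7a5* and *Asns* were the 3 of 10 genes whose groups did not overlap with *Phf2* KO lower, and none was higher without overlap. Over all genes tested the groups did not overlap for 18.0% with *Phf2* KO lower and 15.5% with *Phf2* KO higher. *Phf2* KO replicate 2 was the lowest of the 4 libraries for 7 of the 10 genes, against 23.3% of all genes tested. The same library carries part of the lower means: without it, the log2 fold change was -0.09 for *Slc7a5*, -0.08 for *Trib3* and -0.14 for *Asns*, and without *Phf2* KO replicate 1 it was -0.42, -0.36 and -0.23. Of these 3 genes, *Asns* moved most when a WT library was left out, to -0.07 without replicate 1 and -0.29 without replicate 2.

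The log2 difference between the numbers was similar in both groups: over 11556 genes, those counted at least 50 times on average, its values in WT and in *Phf2* KO had a Pearson's r of 0.854 (across genes, which are not independent replicates). For 7 of the 10 genes, all but *Ddit3*, *Phgdh* and *Chac1*, number 1 was above number 2 in both groups. The same held for 4475 of all 13668 genes tested. Among the 7, *Slc7a11* had the largest log2 difference, 0.81 in WT and 0.34 in *Phf2* KO, beside 2.07 and 1.59 for the macrophage marker *Lyz2*. The part of the sexes and of the macrophage markers in these differences was not tested. With the replicate number as a block, edgeR called 5.20% of all genes lower and 5.77% higher in *Phf2* KO. Of the 10 genes it called 2 lower and 0 higher. *Slc7a5* had a log2 fold change of -0.26 ± 0.084 (adjusted p = 0.0327) and *Trib3* of -0.22 ± 0.083 (adjusted p = 0.0814) in this blocked edgeR fit. *Asns* followed at -0.18 ± 0.083, with an unadjusted p of 0.0279 and an adjusted p of 0.181. *Atf4* itself was at -0.05 ± 0.090 (adjusted p = 0.834), with a 95% interval from -0.23 to 0.12.

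With the block, 1 residual degree of freedom is left among the 4 libraries, and the fit takes its spread almost wholly from all genes together, so the wide difference between both ratios of *Slc7a5* and of *Trib3* does not enter its error. With the block, limma-voom called *Slc7a5* (adjusted p = 0.0402) and not *Trib3*, where it called 646 lower and 725 higher of all 13668 genes. DESeq2 with the block called none of the 10, with an unadjusted p under 0.05 for *Slc7a5* alone. Over all genes DESeq2 with the block called 119 lower and 187 higher, of 7838 genes that it gave an adjusted p. *Slc7a11* was not given one.

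**Figure D2:**
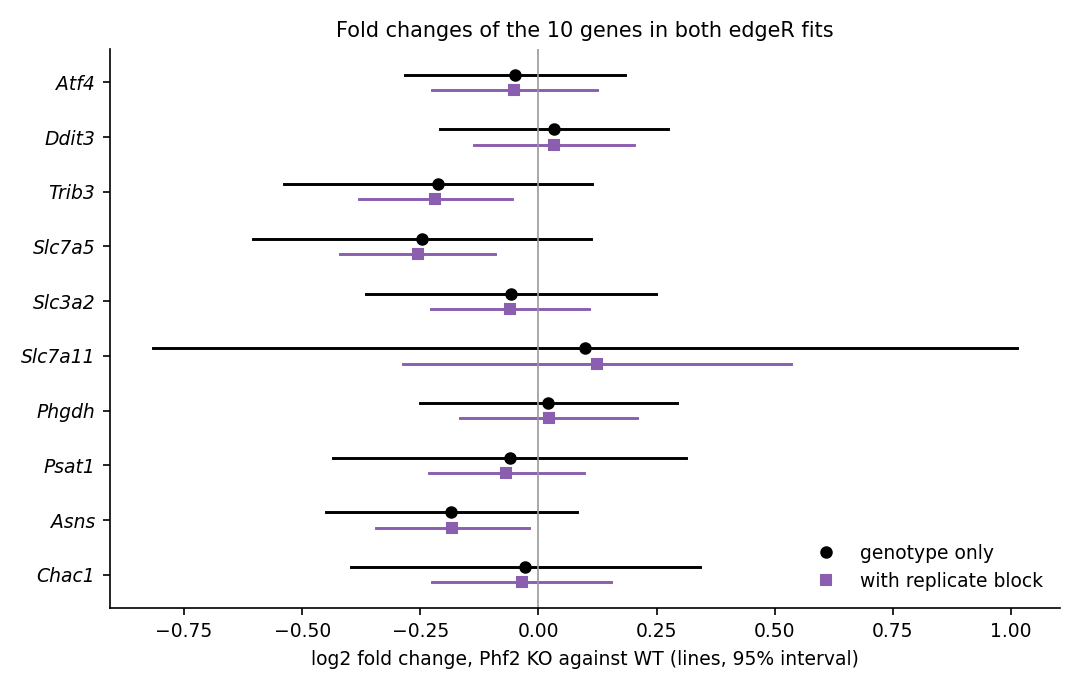
Log2 fold change of *Phf2* KO against WT (horizontal axis) for the 10 genes, in edgeR with genotype only (black circles) and with the replicate number as a block (purple squares). Lines are 95% intervals. All 10 black intervals cross 0, and the purple intervals of *Slc7a5*, *Trib3* and *Asns* lie below 0.

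The ratios within numbers show how far the pairs of libraries went together. In number 1, 6 of the 10 genes had a negative ratio, with a median of -0.04, and in number 2, 9 of the 10, with a median of -0.11. Of all 13668 genes tested, 6573 had a negative ratio in number 1 and 6770 in number 2. Both ratios were negative for *Atf4*, *Trib3*, *Slc7a5*, *Slc3a2* and *Asns*, which are 5 genes, and both were positive for 0. Over all 13668 genes tested, both were negative for 4125 and positive for 4450. The genes with ratios of opposite sign were *Ddit3*, *Phgdh*, *Psat1*, *Chac1* and *Slc7a11*.

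**Figure D3:**
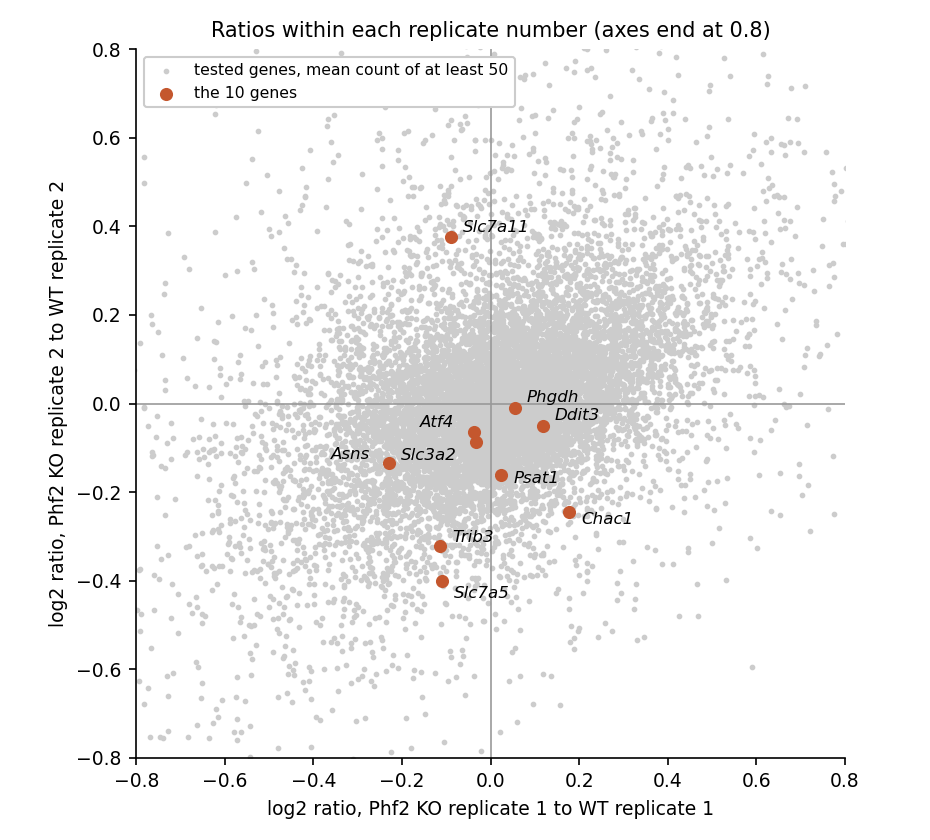
Log2 ratio of *Phf2* KO to WT in replicate number 1 (horizontal axis) and number 2 (vertical axis) for the 10 genes (orange) and for the 11556 tested genes counted at least 50 times on average (grey), of which 283 lie beyond the axes. *Slc7a5* and *Trib3* are low mainly in number 2, with ratios of -0.40 and -0.32 there and of -0.11 for both in number 1.

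The genes that act before Atf4 were examined as lists. None of the 7 eIF2α kinases and their regulators passed the test with or without the block, and none had an unadjusted p under 0.05. *Eif2ak3*, the kinase Perk that senses unfolded protein in the endoplasmic reticulum, had 54.2 and 51.4 normalized CPM in WT, against 49.7 and 49.9 in *Phf2* KO, a log2 fold change of -0.08 ± 0.085. *Eif2ak4*, the kinase Gcn2 that senses uncharged tRNA, had 30.7 and 28.9 in WT, against 34.4 and 31.7 in *Phf2* KO, a log2 fold change of 0.15 ± 0.103. The 8 subunits of eIF2 and its exchange factor eIF2B and the 5 subunits of the eIF2α phosphatases likewise held 0 calls in both fits, with 0 unadjusted p under 0.05. Their medians were 0.04 and 0.05 on the log2 scale. The extremes without overlap were *Eif2s2*, the β subunit of eIF2, at 0.14 ± 0.084, *Eif2b5*, the catalytic subunit of eIF2B, at -0.08 ± 0.079, and *Ppp1cb*, a catalytic phosphatase subunit, at 0.07 ± 0.087.

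Of the bZIP partners and related factors, 8 of 10 could be tested, since *Batf2* and *Batf3* were too low. Without the block 0 were called, with 0 unadjusted p under 0.05. *Cebpd*, a C/EBP factor of inflammation and differentiation, had 53.1 and 62.2 normalized CPM in WT, against 78.3 and 65.5 in *Phf2* KO, higher without overlap. It was called higher with the block (log2 fold change 0.32 ± 0.085, edgeR adjusted p = 0.00552), with ratios of 0.56 in number 1 and 0.08 in number 2. The 10 genes of the other arms of the unfolded protein response held 0 calls in both fits and 0 unadjusted p under 0.05, with a median of -0.00 on the log2 scale. *Dnajb9*, an endoplasmic reticulum chaperone, was at 0.19 ± 0.134 and *Pdia4*, a disulfide isomerase, at -0.08 ± 0.086.

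The other known targets of Atf4 number 35, and all were tested. Without the block 0 were called, with unadjusted p under 0.05 for 1 higher and 3 lower. Of the 35, 22 had a negative log2 fold change and the median was -0.09, and the groups did not overlap for 16 with *Phf2* KO lower and 5 with *Phf2* KO higher, beside 18.0% and 15.5% of all genes tested. Both ratios within numbers were negative for 19 and positive for 7, beside 4125 and 4450 of all 13668 genes tested. With the block 5 were called lower and 1 higher, beside the 5.20% and 5.77% of all genes.

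The 5 lower targets include a transporter, a receptor and enzymes. *Fam129a*, which encodes the stress-responsive protein Niban, had 205 and 174 normalized CPM in WT, against 155 and 127 in *Phf2* KO, a log2 fold change of -0.42 ± 0.146 (unadjusted p = 0.0374 in edgeR) and ratios of -0.40 and -0.45. *Bcat1*, the cytosolic aminotransferase of branched-chain amino acids, had 23.4 and 19.3 in WT, against 16.3 and 13.8 in *Phf2* KO, a log2 fold change of -0.50 ± 0.162 (unadjusted p = 0.0303 in edgeR) and ratios of -0.52 and -0.48. Both genes were thus lower by like amounts in either number. *Aldh1l2*, a mitochondrial folate enzyme, had 95.6 and 85.1 in WT, against 74.6 and 74.4 in *Phf2* KO, a log2 fold change of -0.28 ± 0.091.

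*Slc7a3*, a transporter of cationic amino acids, was low in all libraries, with 6.43 and 5.28 normalized CPM in WT, against 4.73 and 3.45 in *Phf2* KO. *Vldlr*, a lipoprotein receptor, had 62.5 and 61.9 in WT, against 41.9 and 57.0 in *Phf2* KO, so that replicate 1 was the lower here. Both were lower without overlap, and their edgeR adjusted p with the block was 0.0558 and 0.00286. The target with the most negative change without overlap was *Adm2*, a peptide hormone gene, at under 1 CPM in every library (-0.997 ± 0.438), which was not called in either fit.

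*Ddit4*, which encodes Redd1, an inhibitor of mTORC1, was the target called higher with the block. It had 43.5 and 46.9 normalized CPM in WT, against 56.6 and 56.0 in *Phf2* KO, without overlap. Its log2 fold change was 0.32 ± 0.090 (edgeR, unadjusted p = 0.0193, adjusted p = 0.999; with the block adjusted p = 0.00768), and it was higher in both numbers, by 0.38 and 0.26.

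**Figure D4:**
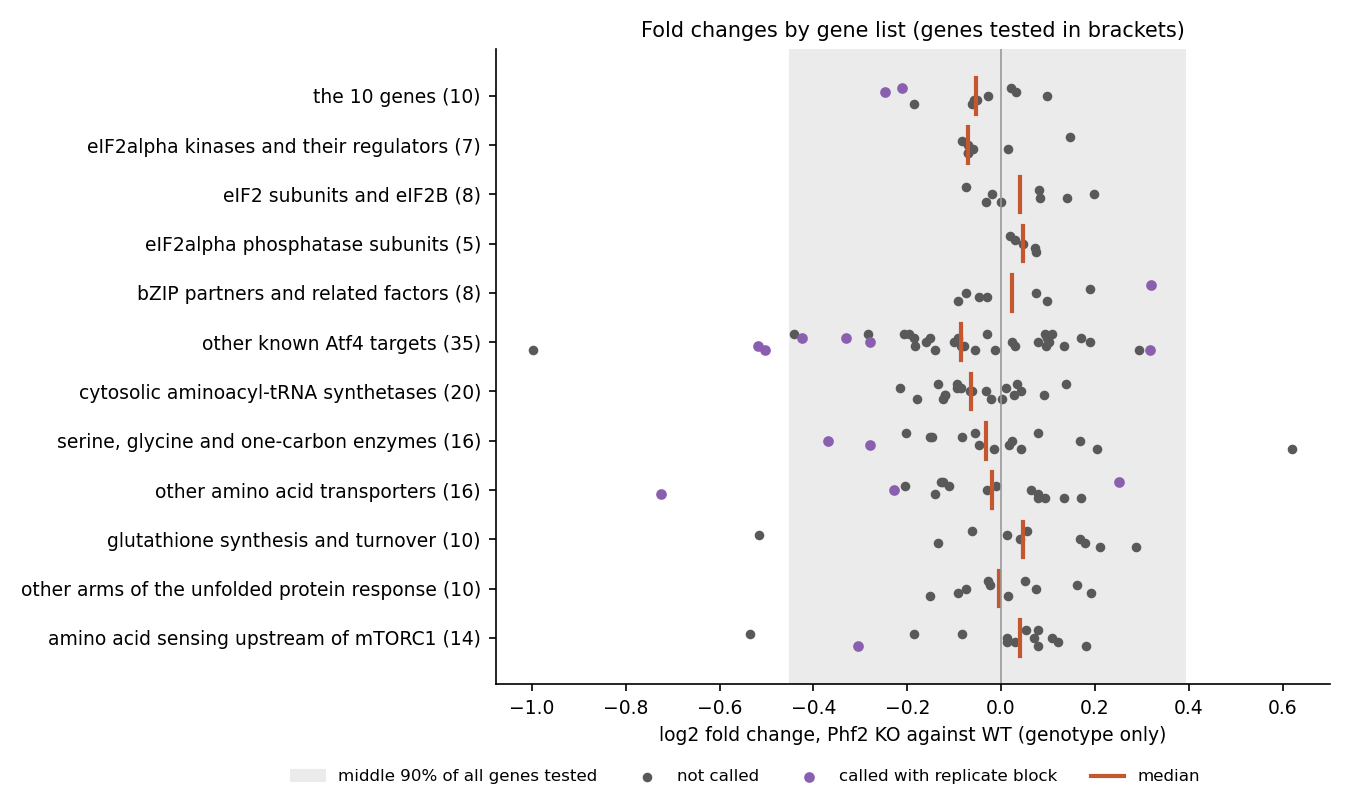
Log2 fold change of *Phf2* KO against WT without the block (horizontal axis) for each tested gene of the 10 genes and of 11 lists, with the number of genes tested in brackets. Orange bars are medians, purple points are genes called with the replicate block, and the grey band, from -0.45 to 0.39, holds the middle 90% of all genes tested. The medians of the lists lie between -0.09 and 0.05, and some genes stand in more than 1 list.

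None of the 20 cytosolic aminoacyl-tRNA synthetases, which charge tRNAs with amino acids, was called in either edgeR fit. Without the block 0 had an unadjusted p under 0.05, and with it 2 did, beside 2673 of all 13668 genes with it. The median was -0.06, and the groups did not overlap for 7 with *Phf2* KO lower and 2 with *Phf2* KO higher (all genes tested, 18.0% and 15.5%). *Eprs*, the enzyme for glutamate and proline, had 409 and 371 normalized CPM in WT, against 330.5 and 342 in *Phf2* KO (-0.22 ± 0.096 on the log2 scale). *Farsa*, a subunit of the phenylalanine enzyme, was the higher extreme at 0.14 ± 0.094.

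Of the 16 enzymes of serine, glycine and one-carbon metabolism, 2 were called lower with the block and 0 higher, where edgeR called 5.20% of all genes lower and 5.77% higher. The 2 were *Aldh1l2*, already given, and *Mthfd1l*, a mitochondrial formate enzyme, which had 14.0 and 11.2 normalized CPM in WT, against 11.4 and 8.15 in *Phf2* KO. The groups overlapped for *Mthfd1l*, while its ratios were -0.30 and -0.46 (with the block, edgeR adjusted p = 0.0660). *Gldc*, of the glycine cleavage system, lay at under 1 CPM in every library, with a log2 fold change of 0.62 ± 0.436 that was not called.

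Of the other amino acid transporters, 16 of 18 were tested, with *Slc7a10* and *Slc3a1* too low. With the block 2 were called lower and 1 higher, again beside 5.20% and 5.77% of all genes. *Slc38a4*, a sodium-coupled neutral amino acid transporter, had 3.40 and 3.66 normalized CPM in WT, against 1.98 and 2.29 in *Phf2* KO, a log2 fold change of -0.72 ± 0.222 (unadjusted p = 0.0257 in edgeR). *Slc7a2*, a cationic amino acid transporter, had 85.3 and 98.7 in WT, against 73.8 and 83.3 in *Phf2* KO (-0.23 ± 0.115). Both were lower without overlap and in both numbers.

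*Slc43a2*, a transporter of large neutral amino acids like *Slc7a5*, was called higher with the block (0.31 ± 0.084, edgeR adjusted p = 0.00633), but its libraries were ordered by number. It had 144 and 42.9 normalized CPM in WT, against 164 and 58.4 in *Phf2* KO. The macrophage markers were also higher in number 1. Within number 1, 8 of the 16 tested macrophage markers were lower in *Phf2* KO and 8 were higher, and *Lyz2*, the most abundant, went from 1325 to 1726 normalized CPM. In number 2 all 16 were higher in *Phf2* KO. Their part in this result was not tested. *Slc38a2*, which imports glutamine and alanine, had 259 and 291 in WT, against 296 and 324 in *Phf2* KO (0.17 ± 0.108) and was not called in either fit.

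The 10 genes of glutathione synthesis and turnover held 0 calls in both fits. Their unadjusted p was under 0.05 for 0 without the block and for 2 with it, beside 2673 of all 13668 genes with it. *Ggct*, at -0.52 ± 0.298, and *Ggt7*, at 0.29 ± 0.188, both enzymes of glutathione turnover, were their extremes without overlap. Of the 14 genes of amino acid sensing upstream of mTORC1, 0 were called without the block, with 0 unadjusted p under 0.05. With it 1 was called lower and 0 higher, against the same shares of all genes: *Rragd*, a Rag GTPase, had 27.0 and 17.5 normalized CPM in WT, against 22.8 and 13.2 in *Phf2* KO (blocked log2 fold change -0.32 ± 0.111, edgeR adjusted p = 0.0527). *Nprl2*, at 0.18 ± 0.138, and *Rragb*, at -0.54 ± 0.292, were the extremes without overlap in that list.

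In all, 134 of 138 listed genes outside the 10 were tested. DESeq2, limma-voom and edgeR without the block called 0 of them. With the block edgeR and limma-voom each called the same 12, 3 higher and 9 lower. DESeq2 with the block called *Fam129a* alone, but it gave an adjusted p to only 7838 of the 13668 genes. Over all genes, edgeR with the block called 5.77% higher and 5.20% lower. Of the 134, 72 had a negative log2 fold change and the median was -0.02.

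The 5 genes most like *Atf4* over the 4 libraries, by the distance between log2 levels centred on each gene's mean, were *Kif1bp*, *Gosr2*, *Tbc1d10b*, *Fam168b* and *Serbp1*. Their distances were between 0.00646 and 0.0151, among 5449 genes with a mean of at least 32 CPM. *Gosr2*, for example, had 135 and 130 normalized CPM in WT, against 131 and 125 in *Phf2* KO. Of the 7 others of the 10 genes that were abundant enough to be ranked, *Slc3a2* came nearest, at rank 1170, and *Slc7a5* last, at rank 3712. A pattern over 4 libraries that differ this little describes these libraries only.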

How the data were processed

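Single reads from 4 RNA-seq libraries (2 WT, 2 *Phf2* KO) were trimmed by the authors with Trim Galore, cleared of rRNA with bowtie2, mapped to the mm9 build (MGSCv37) by STAR, set to reverse stranded, and assigned to genes with featureCounts. Versions and the annotation release are not given in the sources used here. The deposited counts are whole reads per gene symbol without normalization. A second table holds the authors' own DESeq2 comparison and was not used. Replicates are those the labels number, and the study calls them biological. The sex-linked genes differ between numbers 1 and 2, so cells of these numbers came from different embryos, and whether equal numbers share an embryo is not stated. Replicates differed by more than sampling noise (chi-square per degree of freedom of 41.0 in WT and 28.0 in *Phf2* KO).

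Counts were tested in R 4.3.3 with edgeR 4.0.16 (filterByExpr, TMM, glmQLFit and glmQLFTest, genotype only, two-sided, Benjamini-Hochberg over 13668 genes, threshold 0.1). The SE is the size of the log2 fold change divided by the square root of F, and 95% intervals use the degrees of freedom of the test. DESeq2 1.42.0 and limma 3.58.1 (voom), other scalings, filters and thresholds, a replicate block, and each library left out were alternatives. DESeq2 and limma-voom with the block were added after seeing the data. Within numbers, the log2 ratio of normalized CPM was taken. The CPM of 3 counts was taken from the total count of each library and carries no interval. Scripts were tested on simulated data.

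The 10 genes, the lists and the rules were chosen with earlier results of these data known. Genes named are the 10, *Phf2*, list genes called with or without the block, in each list the largest change in each direction among genes whose groups did not overlap, the 5 genes most like *Atf4*, and markers. Positions and exon lengths came from GENCODE vM1 (NCBIM37), promoter windows from RefSeq, with Python 3.11.15, pandas 2.3.3, NumPy 2.4.6 and Matplotlib 3.10.9 for these steps and the figures.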

Additional observations from a re-analysis of the deposited data

How the results depend on the processing

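The count of the 10 genes called was 0 under DESeq2, limma-voom, other size factors, library size alone, no filter on low counts, a threshold of 0.05 and each library left out. It moved with the replicate block, to 2 lower, and with limma-voom and the block, to 1 lower. Of 120 values of single genes under alternatives, 106 kept their direction without passing the threshold. Among these, *Slc7a11* in DESeq2 with the block had no adjusted p. Another 3 passed the threshold (*Slc7a5* in both block fits by edgeR and limma-voom and *Trib3* in the first), and 11 changed sign, all with a library left out. Those genes ranged from -0.015 to 0.078 (*Ddit3*), -0.16 to 0.038 (*Slc3a2*), -0.033 to 0.075 (*Phgdh*), -0.24 to 0.094 (*Psat1*), -0.27 to 0.57 (*Slc7a11*) and -0.19 to 0.11 (*Chac1*) in log2 fold change. The median of the 10 ranged from -0.18 without *Phf2* KO replicate 1 to 0.011 without *Phf2* KO replicate 2, so its sign rests on the latter library.

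Over all genes, edgeR called 1 lower and 0 higher. The calls were 56 lower and 10 higher with DESeq2, 0 and 0 with limma-voom, at a threshold of 0.05 and with any library left out, 711 lower and 789 higher with the replicate block, 119 and 187 with DESeq2 and the block, and 646 and 725 with limma-voom and the block. The common dispersion was 0.0451 without the block and 0.00363 with it. With the block no library can be left out, since no residual degree of freedom is then left. *Slc7a11*, at 64 to 104 counts per library, had the widest interval of the 10 genes in both edgeR fits.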
